A study of Arabidopsis thaliana with 12 samples.

Results

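The hda9-1 effect averaged over both treatments is the difference between 6 hda9-1 and 6 Col-0 seedling samples of Arabidopsis thaliana, taken as 1 genotype term while the abscisic acid (ABA) treatment enters as a covariate. All 12 of the 12 samples belong to it, and 20924 of the 23911 genes in the deposited count table had enough reads to be tested. The groups, with 3 samples each, were hda9-1 without ABA, Col-0 without ABA, hda9-1 after a 50 µM ABA spray for 4 h, and Col-0 after the same spray. Col-0 is the wild-type accession, and hda9-1 carries a mutant allele of the histone deacetylase gene HDA9. Seedlings aged 2 to 3 weeks grew on sucrose medium in long days, and poly(A) RNA was sequenced from a kit that marks the strand.

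Several features limit the groups as a model. The labels give 1 mutant allele, no second allele and no rescued line, and no sprayed control without ABA, so the spray and the 4 h cannot be told apart from ABA. Each treatment holds 3 samples of each genotype. The treatment field of the labels gives no ABA for all Col-0 samples and ABA for all hda9-1 samples, against the sample titles, and the grouping here follows the titles. Samples of a group are called biological replicates there, but nothing says that they came from separate cultures, so p-values measure only the spread between these samples. In bulk seedlings, fewer cells of a type and less RNA per cell cannot be told apart.

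HDA9 is a class I histone deacetylase. Such enzymes remove acetyl groups from histone tails, which is generally linked to lower transcription of the gene concerned, and HDA9 acts in complexes with partner proteins that include HOS15. In Arabidopsis it is known for roles in flowering time, leaf senescence, seed dormancy, the clock and responses to ABA and water deficit.

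The mutated gene was lower in every mutant library. HDA9 (AT3G44680, TAIR10.1 chromosome 3, 16226519 to 16230009, minus strand, 14 exons) had 5.87, 5.45 and 4.72 CPM, which are counts scaled to library size, in hda9-1 without ABA, against 17.1, 16.0 and 15.7 CPM in Col-0 without ABA. After ABA it had 5.26, 4.78 and 5.45 CPM in hda9-1, against 16.8, 16.6 and 16.3 CPM in Col-0. All 6 hda9-1 libraries lay below all 6 Col-0 libraries, at 32.0% of the Col-0 mean, with a log2 fold change of -1.64 ± 0.08 SE (adjusted p = 2.91e-08). These are counts over the whole gene, so they do not show which stretch of it the remaining reads came from. Here and below, a log2 fold change is hda9-1 over Col-0 and is given with its standard error (SE). Adjusted p-values are from edgeR's quasi-likelihood test with Benjamini-Hochberg adjustment over all 20924 genes, and a gene is called at an adjusted p below 0.05.

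The hda9-1 libraries differed from Col-0 in many genes by a small amount and in few by a large one, and the large differences were mostly decreases. Of the 20924 genes, 4933 (23.6%) were called, 2533 (12.1%) higher and 2400 (11.5%) lower in hda9-1. Among them, 375 (1.79% of the genes tested) had a fold of at least 2, of which 67 (0.32%) were higher and 308 (1.47%) lower. All 6 hda9-1 libraries lay above all 6 Col-0 libraries for 691 genes (3.3%) and below them for 485 genes (2.32%), and 1155 of these 1176 genes (5.62% of those tested) were also called. The nearly equal split of the calls depended on scaling. With library size alone the median of all genes was -0.05 on the log2 scale, against -0.01 with TMM scaling, and 1805 genes were called higher and 3054 lower. With upper-quartile factors the counts were 2084 higher and 2867 lower.

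The 12 libraries held 42703802 to 52820930 counts each. The first principal component, with 66.5% of the variance, separated the treatments, and the second, with 12.6%, separated the genotypes without overlap. Among replicates, the median SD of log2 levels was 0.17 in hda9-1 after ABA, against 0.11 in Col-0 after ABA, and hda9-1 after ABA replicate 2 stood apart from the other libraries of its group. Without that library, 2410 genes were called higher and 2360 lower. Of all calls, 3235 of 4933 (65.6%) held whichever of the 12 was removed.

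The 12 genes with the largest increases, among called genes without overlap between genotypes and a mean of 5 CPM or more on the higher side, included AT5G56370, the UDP-glucosyltransferase DOGT1, the cytochrome P450 genes AT3G44970 and CYP81D11, the plastid fibrillin FIB4, the cold-regulated gene COR27 and the glutathione S-transferase GSTU7. The remaining 5 were AT5G05060, AT4G11175, AT1G14640, AT3G51070 and AT5G20130, with log2 fold changes of 0.82 to 0.93. All 12 held their call whichever library was left out and under the 12 other settings.

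AT5G56370, annotated as a protein with F-box and FBD-like domains, had the largest increase. Its hda9-1 libraries ranged from 5.12 to 8.43 CPM with a median of 6.65, against 1.54 to 2.45 CPM with a median of 1.98 in Col-0. The log2 fold change was 1.73 ± 0.17 SE (adjusted p = 9.30e-06), and the lowest hda9-1 library was above the highest Col-0 library by more than the whole Col-0 range. CYP81D11 ranged from 156 to 264 CPM with a median of 202 in hda9-1, against 84.5 to 113 CPM with a median of 98 in Col-0. Its log2 fold change was 1.02 ± 0.10 SE (adjusted p = 9.12e-06). FIB4, whose product belongs to the lipid-associated proteins of plastids, ranged from 130 to 207 CPM in hda9-1 with a median of 166, against 72.4 to 99.2 CPM with a median of 87.8 in Col-0, a log2 fold change of 0.95 ± 0.07 SE (adjusted p = 1.99e-06).

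DOGT1, also called UGT73C5, glucosylates deoxynivalenol and brassinosteroids. It ranged from 15.1 to 30.9 CPM with a median of 18.8 in hda9-1, against 5.76 to 13 CPM with a median of 9.17 in Col-0, a log2 fold change of 1.16 ± 0.21 SE (adjusted p = 0.00183). It sits in a tandem cluster of similar genes, so reads may have been split between copies. Of the 5 tested members of that cluster it was the only one called, and UGT73C1 had a log2 fold change of 1.34 without a call. Without Col-0 without ABA replicate 3, 3 members were called higher. GSTU7 ranged from 68.7 to 124 CPM in hda9-1 and from 46.7 to 54.9 CPM in Col-0, and COR27 from 20.4 to 35.4 CPM in hda9-1 and from 9.52 to 15.2 CPM in Col-0.

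**Figure D1:**
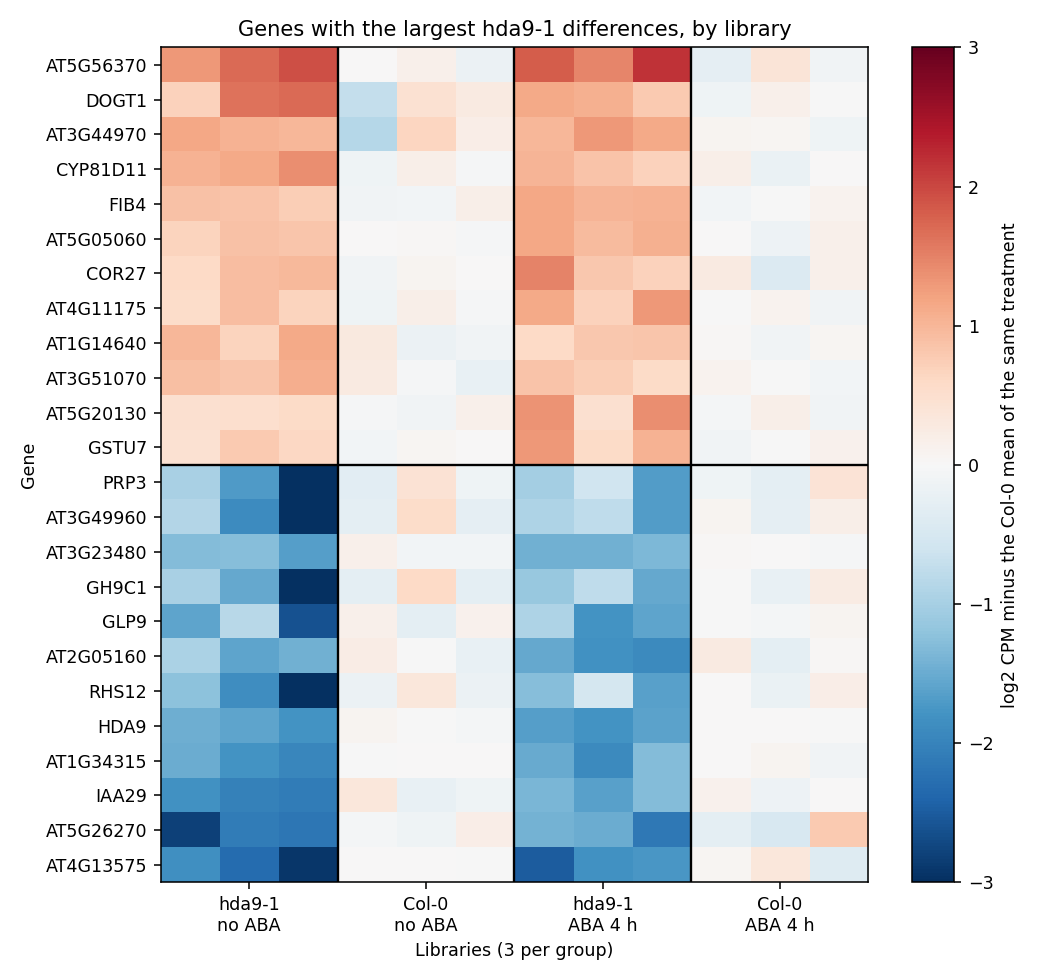
Heat map of the 12 genes with the largest increases (top) and the 12 with the largest decreases (bottom), 1 column per library in groups of 3, shaded by log2 CPM minus the Col-0 mean of the same treatment, with shading stopping at 3 in either direction. Every hda9-1 column is red for the upper 12 genes and blue for the lower 12, which follows from the rule that picked them. The column of hda9-1 without ABA replicate 3 is the darkest for RHS12, GH9C1, PRP3 and AT3G49960.

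Under the same rule for decreases, AT4G13575 led the list. AT4G13575, an uncharacterized protein, ranged from 2.15 to 4.72 CPM with a median of 3.87 in hda9-1, against 12.2 to 20.2 CPM with a median of 16.2 in Col-0. Its log2 fold change of -2.15 ± 0.18 SE (adjusted p = 5.80e-06) exceeded that of HDA9 in size. AT5G26270, also uncharacterized, ranged from 1.26 to 2.47 CPM in hda9-1, against 4.71 to 11.3 CPM in Col-0, with a log2 fold change of -2.04 ± 0.23 SE (adjusted p = 4.91e-05). Neither gene overlapped between genotypes, which the rule itself required.

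IAA29 encodes an Aux/IAA protein, a repressor of auxin-responsive transcription. It had 2.85, 2.46 and 2.33 CPM in hda9-1 without ABA, against 12.8, 8.59 and 9.24 CPM in Col-0 without ABA. Levels after ABA were 5.91, 4.94 and 6.13 CPM in hda9-1, against 16.7, 13.8 and 15.3 CPM in Col-0. The log2 fold change was -1.71 ± 0.14 SE (adjusted p = 3.76e-06), and the gene was called in each treatment alone. AT3G23480, annotated as a cyclopropane-fatty-acyl-phospholipid synthase, ranged from 3.21 to 4.81 CPM in hda9-1 and from 9.49 to 12.6 CPM in Col-0, a log2 fold change of -1.41 ± 0.10 SE (adjusted p = 7.51e-07).

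Among the other decreases, RHS12, named root hair specific 12, had 4.61, 2.99 and 0.622 CPM in hda9-1 without ABA, against 9.67, 13.8 and 9.54 CPM in Col-0 without ABA. With ABA the values were 3.35, 5.65 and 2.65 CPM in hda9-1, against 8.21, 7.07 and 9.37 CPM in Col-0. The genotypes did not overlap, as the rule required, but the spread within hda9-1 was wide, with replicate 3 without ABA far below the others. RHS12 had a log2 fold change of -1.54 ± 0.38 SE (adjusted p = 0.0129). PRP3, a proline-rich cell wall protein, ranged from 2.35 to 13.5 CPM in hda9-1 and from 16.6 to 35.6 CPM in Col-0, a log2 fold change of -1.41 ± 0.37 SE (adjusted p = 0.0209). The cellulase GH9C1, the germin-like protein GLP9 and the peroxidase AT3G49960 had log2 fold changes of -1.42, -1.45 and -1.41. These 5 calls held whichever library was left out.

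Markers of root tissue moved with these genes. Of 19 root markers, 7 (36.8%) were lower, against 11.5% of all genes, and none higher, among them the root hair expansins EXPA7 (-1.28 ± 0.37 SE) and EXPA18 (-1.30 ± 0.43 SE), the root cap regulator SMB (-0.77 ± 0.24 SE) and the Casparian strip proteins CASP1 (-0.57 ± 0.18 SE) and CASP2 (-0.82 ± 0.14 SE), on the log2 scale. The summed level of the 19 was 268, 291 and 281 CPM in hda9-1 without ABA, against 341, 356 and 312 CPM in Col-0 without ABA. After ABA the sum was 225, 212 and 199 CPM in hda9-1, against 263, 251 and 274 CPM in Col-0. Every hda9-1 sum was below every Col-0 sum of the same treatment, and no marker was at 0 in all libraries. Other root markers, such as SCR (-0.02), GL2 (-0.08), CASP4 (0.01) and SHR (-0.13), were not called, and the part of a root share in the decreases was not tested. The count of 7 was 4 without Col-0 after ABA replicate 1 or 3 or without hda9-1 after ABA replicate 2 or 3.

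In windows of 20 neighbouring tested genes, at most 6 genes were lower in 99% of the windows, but 13 of 20 were lower between AT1G51830 and AT1G52100 (TAIR10.1 chromosome 1, 19242654 to 19385602). It holds leucine-rich repeat receptor kinases and mannose-binding lectins in tandem. AT1G51830 had a median of 28.7 CPM in hda9-1, against 55.4 CPM in Col-0, a log2 fold change of -1.03 ± 0.13 SE, and the kinase-like gene AT1G51840 of -1.02 ± 0.11 SE. Among the lectins, AT1G52050 had -1.02 ± 0.20 SE and AT1G52070 -0.65 ± 0.15 SE. Genes of other kinds in the same stretch differed in direction, since the Aux/IAA gene IAA18 (-0.19 ± 0.06 SE) and AR791 (-0.26 ± 0.07 SE) were lower, ABO5 was higher at 0.31 ± 0.09 SE, and AT1G51980, annotated as an insulinase-family peptidase, had 0.06 ± 0.06 SE without a call. The receptor kinase gene LYK3 had 0.02 ± 0.07 SE, also without a call. Tandem copies share sequence, so the values of single members are uncertain. Other windows also held more than 6 lower genes, with 9 between AT1G30680 and AT1G30900 and 9 between AT1G33540 and AT1G33930. The most higher genes in a window were 9, between AT3G07550 and AT3G07740. By whole chromosome, 23.0% to 24.1% of the tested genes were called on each of the 5, which does not show the spread at the scale of windows.

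Of 17 tested genes of the list of histone deacetylases and HDA9 partners, 4 (23.5%) were higher, against 12.1% of all genes, and 2 (11.8%) lower, HDA9 included, against 11.5%. AT3G52250, annotated as a homeodomain-like protein, had 234, 212 and 227 CPM in hda9-1 without ABA, against 136, 125 and 110 CPM in Col-0 without ABA. The ABA samples gave 182, 223 and 182 CPM in hda9-1, against 134, 124 and 133 CPM in Col-0. The genotypes did not overlap, and the log2 fold change was 0.72 ± 0.08 SE (adjusted p = 2.01e-05). HOS15, a WD40 protein that binds HDA9, ranged from 82.9 to 100 CPM in hda9-1 and from 68.7 to 78.8 CPM in Col-0, a log2 fold change of 0.31 ± 0.06 SE (adjusted p = 0.00125). HDA14 and HDA08 were higher by 0.36 and 0.24 on the log2 scale, and the class I deacetylases HDA6 (0.09) and HD1 (-0.09) were not called.

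Genes that earlier work linked to HDA9 moved in both directions over both treatments. Of 16 tested, 6 (37.5%) were higher and 4 (25%) lower, against 12.1% and 11.5% of all genes, and the median log2 fold change was 0.28, against -0.01 over all genes. By treatment, 7 were higher and 1 lower without ABA, against 9.87% and 7.07% of all genes, with a median of 0.34. In the fit after ABA 1 was higher and 2 lower, against 3.58% and 3.06% of all genes, with a median of 0.20. FT, which encodes the mobile flowering signal, had 0.641, 0.483 and 0.321 CPM in hda9-1 without ABA, against 0.108, 0.105 and 0.13 CPM in Col-0 without ABA. After ABA it had 0.508, 0.81 and 0.662 CPM in hda9-1, against 0.332, 0.0389 and 0.0418 CPM in Col-0. Its log2 fold change was 2.17 ± 0.49 SE (adjusted p = 0.00472), resting on 160 counts in the 6 hda9-1 libraries and 35 in the 6 Col-0 libraries, and only the highest Col-0 library overlapped the mutant range. APG9, an autophagy protein, was higher by 0.29 ± 0.07 SE. WRKY53, a senescence regulator, was lower, with -1.08 ± 0.26 SE (adjusted p = 0.00687), as were YUC8 of auxin synthesis at -0.49 ± 0.13 SE and the ABA catabolism gene CYP707A1 at -0.44 ± 0.09 SE.

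Of 21 flowering regulators, 5 (23.8%) were higher, against 12.1% of all genes, and 3 (14.3%) were lower, against 11.5%. The 5 were FT, GI, AGL20, AGL24 and AGL8, which promote flowering. AGL20, also called SOC1, a MADS-box integrator of flowering signals, had 47.4, 41.9 and 49.9 CPM in hda9-1 without ABA, against 34.1, 27.0 and 28.7 CPM in Col-0 without ABA. Levels after ABA were 103, 99.1 and 79.3 CPM in hda9-1, against 66.3, 56.8 and 75.0 CPM in Col-0. Within each treatment the genotypes did not overlap, and the log2 fold change was 0.57 ± 0.09 SE (adjusted p = 3.59e-04). The MADS-box genes AGL24 (0.76 ± 0.24 SE) and AGL8 (0.77 ± 0.25 SE) were higher, and the floral repressors MAF4 (-0.95 ± 0.29 SE), RAV2 (-0.40 ± 0.09 SE) and TEM1 (-0.29 ± 0.09 SE) were lower. FLC, the main vernalization-responsive repressor, had -1.01 without a call. Of 6 tested floral organ markers 1 was called (16.7%, against 23.6% of all genes), SEP3, which was higher by 1.29 ± 0.31 SE. The summed level of 11 floral markers was 3.95 to 10.5 CPM in hda9-1, against 1.97 to 4.93 CPM in Col-0, and the ranges overlapped. The part of early floral tissue in these values was not tested. The count of 5 higher was 3 without Col-0 after ABA replicate 1 or 3, hda9-1 without ABA replicate 3 or hda9-1 after ABA replicate 3, and the count of 3 lower was 1 without Col-0 without ABA replicate 2.

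Of 18 clock genes, 9 (50.0%) were higher in hda9-1, against 12.1% of all genes, and 3 (16.7%) were lower, against 11.5% of all genes. Without ABA alone 7 were higher and none lower, with a median log2 fold change of 0.28, and after ABA 2 were higher and 3 lower, with a median of 0.02. The plant clock is a loop in which morning factors such as CCA1 repress evening genes such as TOC1 and GI, and the evening genes repress the morning ones in turn. GI, an evening gene, had 334, 323 and 297 CPM in hda9-1 without ABA, against 250, 235 and 218 CPM in Col-0 without ABA. With ABA the values were 274, 341 and 258 CPM in hda9-1, against 258, 210 and 231 CPM in Col-0, and the log2 fold change was 0.38 ± 0.08 SE (adjusted p = 0.00274). FKF1, a blue-light receptor of the evening, was higher with 0.51 ± 0.10 SE (adjusted p = 0.00255), and PCL1, also called LUX, of the evening complex with 0.44 ± 0.10 SE (adjusted p = 0.00473). TOC1, ELF3, ELF4, PRR5, the photoreceptor gene ZTL and AT5G52660, also called RVE6 and a MYB gene related to CCA1, were higher by 0.21 to 0.52 on the log2 scale.

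CCA1, a MYB repressor that peaks at dawn, had 3.99, 3.06 and 5.06 CPM in hda9-1 without ABA, against 5.64, 5.67 and 6.62 CPM in Col-0 without ABA. The ABA samples gave 8.38, 12 and 10.2 CPM in hda9-1, against 18.2, 19.4 and 17.7 CPM in Col-0. No hda9-1 library reached a Col-0 library of the same treatment, and the log2 fold change was -0.71 ± 0.13 SE (adjusted p = 9.04e-04). PRR9, a morning-phased repressor, was lower with -0.50 ± 0.09 SE (adjusted p = 0.00113), and AT3G54500, also called LNK2, with -0.57 ± 0.11 SE (adjusted p = 0.00285). CCA1's partner LHY had -0.47 without a call. The 9 higher calls were 6 to 9 across the libraries left out. The labels give no time of day for any sample, so a difference in harvest time between genotypes was not tested.

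**Figure D2:**
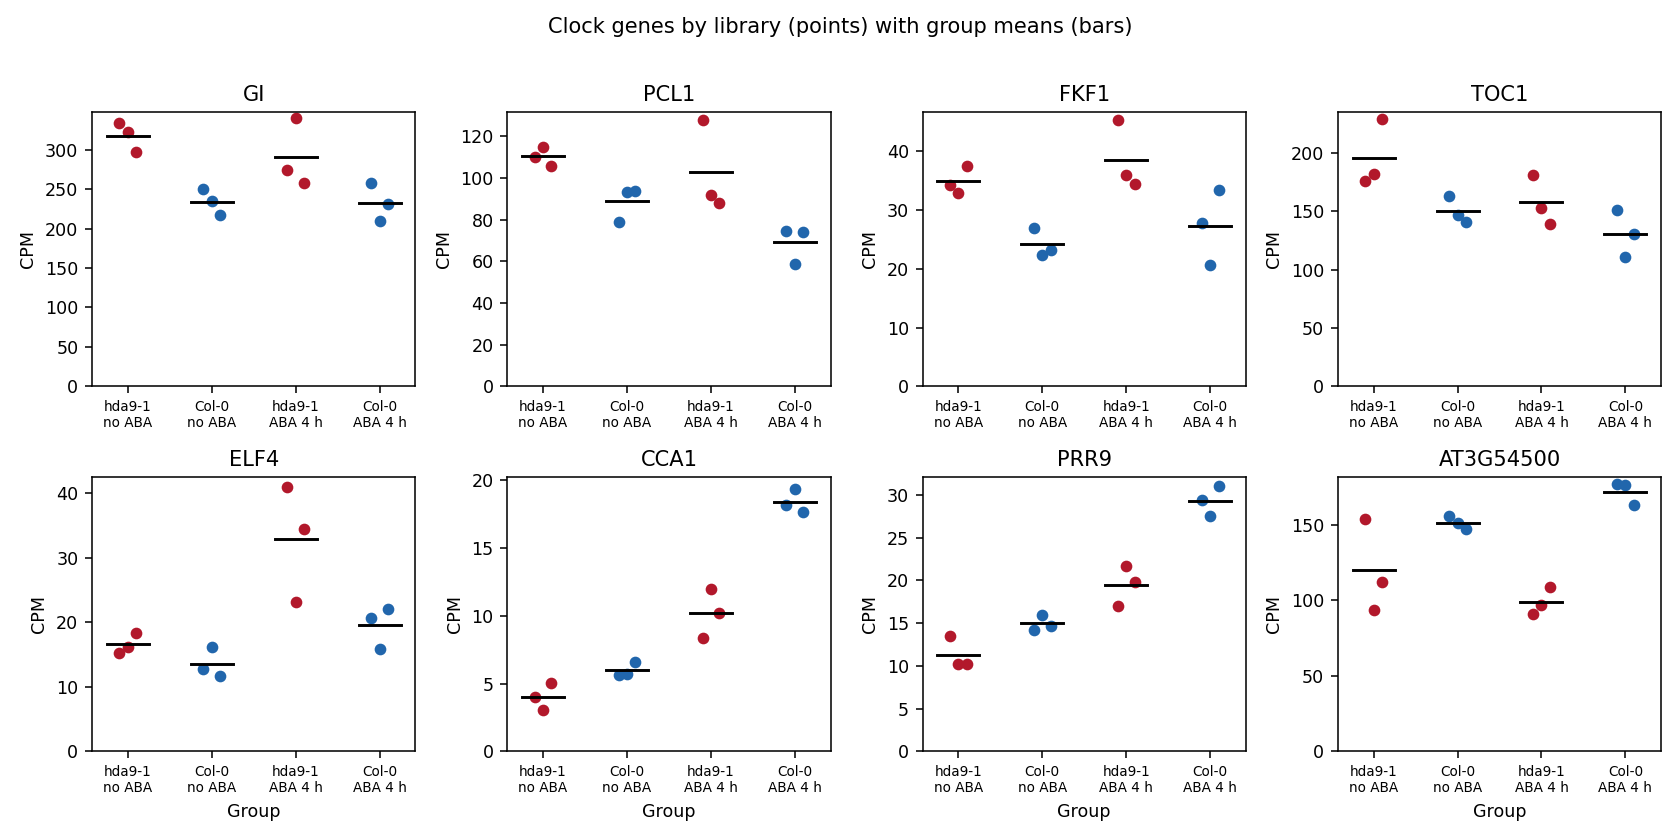
CPM of 8 clock genes in each library (points) with the mean of each group of 3 (bars), hda9-1 in red and Col-0 in blue. The hda9-1 means lie above the Col-0 means of the same treatment for GI, PCL1, FKF1, TOC1 and ELF4 and below them for CCA1, PRR9 and AT3G54500, and the CCA1 groups do not overlap in either treatment.

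The upstream sequences of 4 of the 9 higher clock genes hold the evening element AAAATATCT, a motif found before evening-phased genes, within 250 bases before the annotated start. None of the 3 lower and none of the 6 uncalled clock genes held it there. The stretches are shown because these genes moved together. They are from RefSeq TAIR10.1, run 5′ to 3′ on the gene's strand with 20 bases on each side, and the capitals mark the element, which appears as AGATATTTT where it lies on the opposite strand.
TOC1 (chr5:24674792-24674840, plus strand): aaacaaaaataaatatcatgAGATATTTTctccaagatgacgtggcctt
PRR5 (chr5:8358705-8358753, minus strand): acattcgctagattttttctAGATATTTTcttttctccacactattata
PCL1 (chr3:17182969-17183017, plus strand): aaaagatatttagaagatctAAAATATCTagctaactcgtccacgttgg
FKF1 (chr1:25508433-25508481, plus strand): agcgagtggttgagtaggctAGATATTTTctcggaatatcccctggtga

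Over all tested genes with such a window, 2.49% of 20797 held the evening element on either strand, against 4.03% of the 2530 higher genes and 2.3% of the 2391 lower genes. Among higher genes with a fold of at least 2 it was in 7.46%, which is 5 of 67 windows. The ABA-response core ACGTG was in 22.7% of the higher, 27.2% of the lower and 24.0% of all windows, and in 34.6% of windows of lower genes with a fold of at least 2. Its subset CACGTG was in 7.23%, 7.7% and 7.34% of the higher, lower and all windows, and the W-box core TTGAC in 42.3%, 48.0% and 45.3%. For CCGAC the shares were 13.9%, 11.7% and 12.7%, and for GATAAG 12.9%, 11.8% and 12.3%, in the same order. A match is a run of letters and says nothing of binding.

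Windows of the genes with the largest increase and the 2 largest decreases under the naming rule are given for context, again from TAIR10.1 and 5′ to 3′ on the gene's strand. Capitals mark CCGAC in AT5G56370 and GATAAG in AT4G13575, and AT5G26270 held none of the 6 motifs. The window of DOGT1 overlaps a neighbouring gene and is not shown.
AT5G56370 (chr5:22837973-22838222, minus strand): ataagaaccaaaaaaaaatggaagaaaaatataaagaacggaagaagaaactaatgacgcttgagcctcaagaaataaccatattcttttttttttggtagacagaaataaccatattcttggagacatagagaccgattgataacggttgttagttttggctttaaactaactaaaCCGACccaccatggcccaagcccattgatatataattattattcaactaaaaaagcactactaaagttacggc
AT4G13575 (chr4:7893762-7894011, minus strand): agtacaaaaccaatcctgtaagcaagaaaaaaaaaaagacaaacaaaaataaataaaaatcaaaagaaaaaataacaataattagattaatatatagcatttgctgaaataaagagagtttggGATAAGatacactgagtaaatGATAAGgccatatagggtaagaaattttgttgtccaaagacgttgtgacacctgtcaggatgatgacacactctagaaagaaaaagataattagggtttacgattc
AT5G26270 (chr5:9206125-9206374, plus strand): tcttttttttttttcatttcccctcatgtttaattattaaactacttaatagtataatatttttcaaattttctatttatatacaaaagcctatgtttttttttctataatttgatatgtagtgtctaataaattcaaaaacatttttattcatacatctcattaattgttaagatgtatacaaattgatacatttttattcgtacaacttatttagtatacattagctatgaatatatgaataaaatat

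In the redox lists, 13 of 27 peroxiredoxin and thioredoxin genes were higher and 7 of 8 NADPH oxidase genes lower, while the ascorbate-glutathione list had calls in both directions. Peroxiredoxins break down peroxides, and thioredoxins reduce disulfides, in plastids with electrons from photosynthesis. Of 27 tested genes of that list, 13 (48.1%) were higher, against 12.1% of all genes, and none was lower, and their median log2 fold change was 0.26. Most of the 13 act in plastids. ATHM2, thioredoxin m2, had 344, 351 and 302 CPM in hda9-1 without ABA, against 204, 228 and 247 CPM in Col-0 without ABA. After ABA it had 403, 342 and 400 CPM in hda9-1, against 235, 238 and 266 CPM in Col-0. The 6 hda9-1 libraries lay above the 6 Col-0 libraries, with a log2 fold change of 0.59 ± 0.07 SE (adjusted p = 5.00e-05).

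The 2-Cys peroxiredoxin genes 2-Cys Prx B (0.47 ± 0.06 SE, adjusted p = 8.81e-05) and AT3G11630 (0.47 ± 0.08 SE, adjusted p = 4.56e-04) also did not overlap between genotypes, nor did thioredoxin f2, TRXF2 (0.40 ± 0.07 SE, adjusted p = 6.01e-04). NTRC, the NADPH-dependent reductase of 2-Cys peroxiredoxins, was higher by 0.45 ± 0.07 SE, and TRX z, a component of the plastid transcription machinery, by 0.66 ± 0.14 SE. The cytosolic thioredoxins TRX3 (0.22) and TRX5 (0.18) and the reductases NTRA (0.01) and NTRB (0.11) were not called. The list kept 12 to 14 higher calls and no lower one under the other scalings and tests, and 11 to 14 with a library left out, with 1 lower call at most.

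Superoxide dismutases remove superoxide, and catalases break down hydrogen peroxide. In the list of both families 4 of 11 (36.4%) were higher, against 12.1% of all genes, and none lower. Fitted apart, 1 was higher without ABA and 5 after ABA, with none lower in either treatment. The plastid iron enzyme FSD3 had a log2 fold change of 0.63 ± 0.12 SE (adjusted p = 0.00231), and CAT1 of 0.47 ± 0.08 SE (adjusted p = 7.46e-04), while the mitochondrial MSD1 was higher by 0.25 ± 0.06 SE. CAT1 had 225, 208 and 173 CPM in hda9-1 without ABA, against 131, 136 and 138 CPM in Col-0 without ABA, and 260, 243 and 202 CPM in hda9-1 after ABA, against 189, 172 and 192 CPM in Col-0 after ABA. CAT1 did not overlap within a treatment. With library size alone the list had 3 higher and 1 lower. The summed level of the 11 was 5784, 5382 and 4649 CPM in hda9-1 without ABA, against 5021, 4529 and 5393 CPM in Col-0 without ABA, and 6553, 6863 and 6646 CPM in hda9-1 after ABA, against 7195, 6880 and 7716 CPM in Col-0 after ABA. After ABA all 3 hda9-1 sums were below the Col-0 sums. CAT3, a catalase, averaged 3894 CPM in hda9-1 and 4533 CPM in Col-0, with a log2 fold change of -0.20 without a call.

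In the ascorbate-glutathione cycle, 7 of 25 (28.0%) were higher, against 12.1% of all genes, and 3 (12%) were lower, against 11.5% of all genes. Without ABA alone 6 were higher and 5 lower, and after ABA 3 were higher and none lower. The peroxisomal ascorbate peroxidase APX3 ranged from 150 to 200 CPM in hda9-1, against 115 to 142 CPM in Col-0, a log2 fold change of 0.41 ± 0.06 SE (adjusted p = 1.84e-04). The glutathione reductase GR ranged from 186 to 206 CPM in hda9-1, against 140 to 172 CPM in Col-0, a log2 fold change of 0.37 ± 0.06 SE (adjusted p = 4.83e-04), and DHAR3 was higher by 0.33 ± 0.06 SE. MDHAR, a monodehydroascorbate reductase, had 6.41, 7.33 and 5.86 CPM in hda9-1 without ABA, against 14.2, 14.3 and 14.5 CPM in Col-0 without ABA, and was lower over both treatments with -1.12 ± 0.19 SE (adjusted p = 5.79e-04). DHAR1 was lower at -0.45 ± 0.11 SE and APX5 at -0.71 ± 0.16 SE.

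NADPH oxidases of the respiratory burst family produce superoxide at the plasma membrane. Of 8 tested, 7 (87.5%) were lower and none higher, against 11.5% of all genes lower, and the eighth, AT4G11230, had -0.52 without a call. RBOHD, which drives bursts after pathogen and wound signals, had 50.5, 63.9 and 49.7 CPM in hda9-1 without ABA, against 74.1, 81.0 and 72.3 CPM in Col-0 without ABA. Levels after ABA were 22.5, 25.4 and 22.8 CPM in hda9-1, against 33.8, 37.1 and 31.6 CPM in Col-0. The genotypes did not overlap within a treatment, and the log2 fold change was -0.50 ± 0.07 SE (adjusted p = 2.17e-04).

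RHD2, also called RBOHC and needed for root hair growth, ranged from 11.7 to 19.7 CPM in hda9-1, against 21.6 to 35.1 CPM in Col-0, a log2 fold change of -0.77 ± 0.13 SE (adjusted p = 8.32e-04). AT4G25090 had -0.99 ± 0.12 SE (adjusted p = 6.83e-05), and RBOH F, which acts with ABA in guard cells, had -0.29 ± 0.08 SE (adjusted p = 0.0151). Under the 12 other settings 7 of the 8 were lower, and 6 or 7 with a library left out. Some root markers, given above, and some genes of the guard cell marker list were lower as well. Of 15 tested genes of that list 6 were lower, a share above the 11.5% of all genes. KAT1 (-0.59 ± 0.09 SE) and FMA (-0.47 ± 0.11 SE) were among the 6. None of the 15 was called higher over both treatments, and 4 had positive log2 fold changes. Without ABA alone 2 of the 15 were higher and 1 lower, and after ABA 3 were lower and none higher. Their summed level was 282 to 312 CPM in hda9-1 without ABA, against 323 to 331 CPM in Col-0 without ABA. After ABA the guard cell sum was 420 to 497 CPM in hda9-1, against 476 to 551 CPM in Col-0. Their part in the NADPH oxidase values was not tested. The 6 guard cell calls were 2 without Col-0 after ABA replicate 3 or hda9-1 after ABA replicate 3, and 3 without Col-0 without ABA replicate 3, Col-0 after ABA replicate 2 or hda9-1 without ABA replicate 3.

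**Figure D3:**
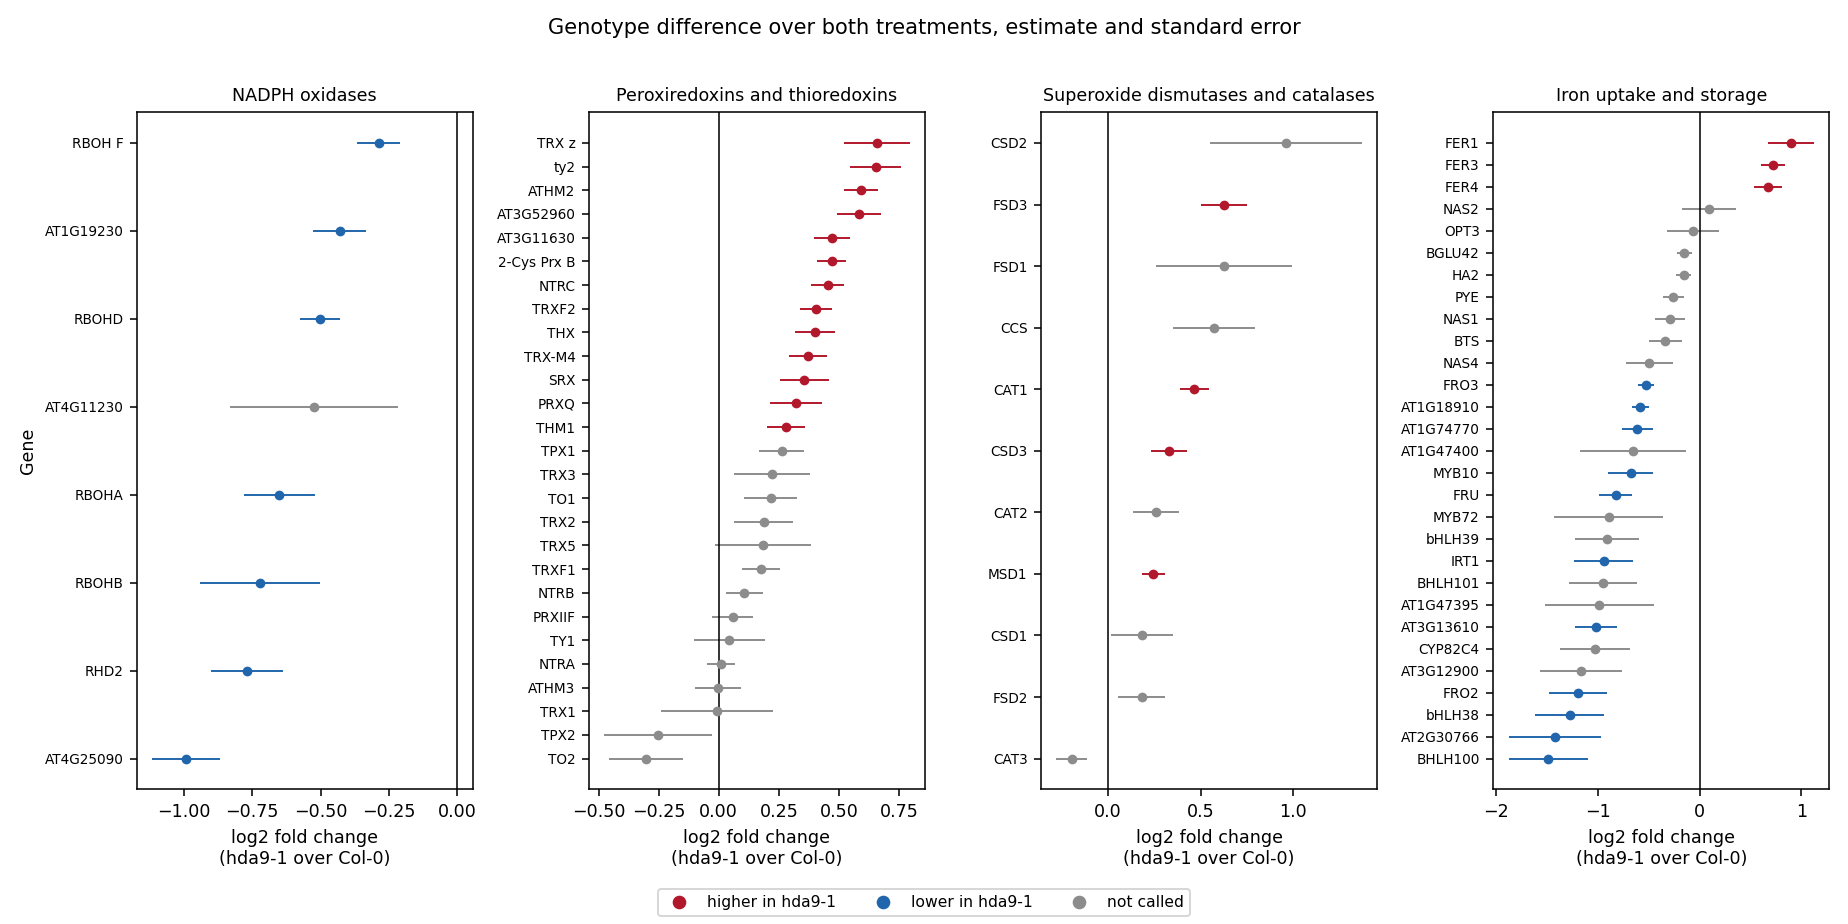
Log2 fold change of hda9-1 over Col-0 (points) with its standard error (lines) for the tested members of 4 lists, higher in red, lower in blue, not called in grey. The NADPH oxidases all lie left of 0, the called peroxiredoxins and thioredoxins, dismutases and catalases lie right of 0, and in the iron list the 3 called ferritins lie right of 0 and the other 11 called genes left of it.

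Ferritin genes were higher and 11 other genes of the iron list lower. Plants take up iron through the reductase FRO2 and the transporter IRT1, under bHLH regulators that rise in deficiency, and store it in plastid ferritins. Of 29 tested genes of the iron list, 11 (37.9%) were lower, against 11.5% of all genes, and 3 (10.3%) higher, against 12.1%. The ferritins FER1, FER3 and FER4 made up all 3 increases. By treatment, 4 of the list were lower and none higher without ABA, where 7.07% of all genes were lower. In the fit after ABA 10 were lower and 3 higher, against 3.06% and 3.58% of all genes. FER3 had 80.0, 90.5 and 59.0 CPM in hda9-1 without ABA, against 54.3, 34.2 and 43.0 CPM in Col-0 without ABA, and 43.3, 41.7 and 48.2 CPM in hda9-1 after ABA, against 28.9, 31.5 and 25.3 CPM in Col-0 after ABA. The genotypes did not overlap within a treatment, and the log2 fold change was 0.72 ± 0.12 SE (adjusted p = 7.62e-04).

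FRU, named FER-like regulator of iron uptake, had 8.74, 9.93 and 8.17 CPM in hda9-1 without ABA, against 17.7, 16.0 and 14.5 CPM in Col-0 without ABA, and a log2 fold change of -0.83 ± 0.17 SE (adjusted p = 0.00233). FRO2 was lower at -1.20 ± 0.29 SE and IRT1 at -0.94 ± 0.29 SE, though their hda9-1 and Col-0 values overlapped without ABA. BHLH100 and bHLH38, which rise in iron deficiency, had -1.49 ± 0.39 SE and -1.28 ± 0.34 SE. FRO3, a mitochondrial ferric reductase, ranged from 91.6 to 133 CPM in hda9-1, against 139 to 187 CPM in Col-0, a log2 fold change of -0.53 ± 0.08 SE (adjusted p = 3.47e-04). Lower calls numbered 8 to 14 across libraries left out and 10 to 14 under the other settings. Uptake genes are expressed mainly in roots, where the marker sums above were also lower, while ferritins are found in leaves too, and the part of a root share was not tested.

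Of 17 nitrate genes, 6 (35.3%) were lower, against 11.5% of all genes, and 2 (11.8%) higher, against 12.1%. Fitted apart, 4 were lower and 1 higher without ABA, and 1 was lower and 2 higher after ABA. The high-affinity transporter NRT2:1 was lower with -1.81 ± 0.37 SE (adjusted p = 0.00281), the cytosolic glutamine synthetase GSR 1 with -0.48 ± 0.08 SE (adjusted p = 4.02e-04), and the dual-affinity transporter NRT1.1 at -0.36 ± 0.11 SE. The nitrate reductase NIA1 was higher, at 1110 to 1780 CPM in hda9-1, against 539 to 1090 CPM in Col-0, with 0.65 ± 0.16 SE (adjusted p = 0.0105). The 6 lower calls were 3 to 5 whichever library was left out, with 3 without Col-0 without ABA replicate 2. The 2 higher calls were 1 without Col-0 without ABA replicate 1 or 3, Col-0 after ABA replicate 2, hda9-1 without ABA replicate 1 or hda9-1 after ABA replicate 2.

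All 20 tested jasmonate genes had negative log2 fold changes, 6 (30.0%) were called lower, against 11.5% of all genes, and the median was -0.43. OPR3, which makes the jasmonate precursor in peroxisomes, had 9.17, 9.45 and 8.21 CPM in hda9-1 without ABA, against 18.6, 15.3 and 18.7 CPM in Col-0 without ABA. With ABA the values were 8.35, 10.7 and 10.7 CPM in hda9-1, against 17.2, 21.5 and 18.7 CPM in Col-0. All hda9-1 libraries lay below all Col-0 libraries, with a log2 fold change of -0.96 ± 0.09 SE (adjusted p = 9.30e-06). The allene oxide cyclase AOC3 and the repressors TIFY7, JAZ1 and JAZ6 had -0.59, -0.56, -0.50 and -0.46, and the sixth, the defensin PDF1.2, was high in only 3 of the Col-0 libraries. Lower calls of the jasmonate list numbered 5 to 7 across libraries left out, and 4 of the 6 held under all 12 other settings.

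In the auxin list, 7 of 22 (31.8%) were lower, against 11.5% of all genes, and 1 higher, with IAA14 (-0.59 ± 0.10 SE), the synthesis gene YUC9 (-0.70 ± 0.14 SE) and the transporter PIN3 (-0.29 ± 0.09 SE) below Col-0 beside IAA29. With a library left out 5 to 9 of the auxin list were lower and 0 or 1 higher. Of its 8 calls, 5 held whichever library was removed. Camalexin synthesis had 2 of 9 (22.2%) lower, against 11.5% of all genes, and 1, ABCG34, higher at 0.26 ± 0.09 SE. That is 33.3% called, against 23.6% of all genes. Among the 12 other settings, the camalexin list had a higher call only with DESeq2 and in the model of 4 group means. With a library left out, it had a higher call only without hda9-1 after ABA replicate 3. CYP71A13, which acts early in that pathway, had 0.165, 0.0 and 0.201 CPM in hda9-1 without ABA, against 2.02, 0.924 and 1.15 CPM in Col-0 without ABA. The ABA samples gave 0.461, 0.587 and 0.904 CPM in hda9-1, against 2.09, 2.96 and 2.42 CPM in Col-0, without overlap, and a log2 fold change of -2.54 ± 0.42 SE (adjusted p = 6.05e-04). The salicylic acid list had 3 of 17 called, a share below the 23.6% of all genes. The 3 were lower, ALD1 and EDS1 among them, at -1.46 ± 0.29 SE and -0.30 ± 0.06 SE, and they were 5 without hda9-1 after ABA replicate 3. Without ABA alone 2 were higher and 3 lower.

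Of 22 ABA-induced markers, 3 (13.6%) were lower and 1 higher over both treatments, which is 18.2% called, against 23.6% of all genes. Without ABA alone 6 were lower and 1 higher, with 7.07% of all genes lower, and after ABA 2 were lower and 1 higher. The summed level of the 22 was 518, 503 and 415 CPM in hda9-1 without ABA, against 590, 624 and 615 CPM in Col-0 without ABA, without overlap. After ABA it was 8784, 6823 and 9360 CPM in hda9-1, against 7255, 7742 and 8437 CPM in Col-0, with overlap. LTI65, also called RD29B, had 0.351, 0.23 and 0.502 CPM in hda9-1 without ABA, against 1.15, 1.22 and 0.692 CPM in Col-0 without ABA. After ABA it had 110, 134 and 121 CPM in hda9-1, against 205, 159 and 180 CPM in Col-0. Within each treatment the genotypes did not overlap, and the log2 fold change was -0.75 ± 0.16 SE (adjusted p = 0.0039). The dehydrin RAB18 was lower at -0.71 ± 0.14 SE and RD22 at -0.41 ± 0.09 SE, whereas the homeobox gene HB-7 was higher by 0.35 ± 0.07 SE. The lower count over both treatments was 7 in the model of 4 group means, 6 with library size alone and 5 with DESeq2. Without hda9-1 after ABA replicate 1 it was 6, and without replicate 3 of that group it was 5.

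AAO3, the aldehyde oxidase of the last step of ABA synthesis, was higher with 0.35 ± 0.06 SE (adjusted p = 5.01e-04). DOG1, a regulator of seed dormancy, was lower over both treatments with -1.05 ± 0.17 SE (adjusted p = 6.03e-04). In the seed maturation list 1 of 5 tested genes was called, a lower one (20.0%, against 23.6% of all genes called). Another 4 had positive log2 fold changes without a call, and the list median was 0.88. The list had 1 lower call without ABA alone and no call after ABA. In the senescence list 4 of 16 (25%) were lower, against 11.5% of all genes, NAC6 (also ORE1) at -0.53 ± 0.11 SE among them, and SAG29, a sugar transporter, was higher at 0.90 ± 0.15 SE. That list had 3 lower and 1 higher without ABA alone, and no call after ABA. In alternative respiration, which bypasses energy-conserving steps of the mitochondrial chain, 2 of 11 were higher and 1 lower, which is 27.3% called, near the 23.6% of all genes. The alternative oxidase AOX1A had 40.5, 54.1 and 55.5 CPM in hda9-1 without ABA, against 26.1, 37.5 and 28.3 CPM in Col-0 without ABA, and 84.1, 84.3 and 79.2 CPM in hda9-1 after ABA, against 50.5, 52.8 and 63.3 CPM in Col-0 after ABA. It did not overlap within a treatment, and the log2 fold change was 0.64 ± 0.10 SE (adjusted p = 3.77e-04).

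Photosynthesis genes of the nucleus were near the background, with 5 of 43 (11.6%) higher, against 12.1% of all genes, and 4 (9.3%) lower, against 11.5%. The counts were 2 higher and 7 lower without hda9-1 without ABA replicate 1, and 8 higher without replicate 3 of that group. They were 3 higher without Col-0 without ABA replicate 1, hda9-1 without ABA replicate 2 or hda9-1 after ABA replicate 2. LHCB2.1 and LHCB2.2, light-harvesting proteins of photosystem II, were lower at -0.56 ± 0.08 SE and -0.41 ± 0.07 SE without overlap between genotypes, but the copies are nearly alike and their split is uncertain. Heat shock genes had 1 higher and 1 lower of 16, which is 12.5% called, against 23.6% of all genes. None of the 16 mitotic genes was called by edgeR, with log2 fold changes of -0.24 to 0.39.

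**Figure D4:**
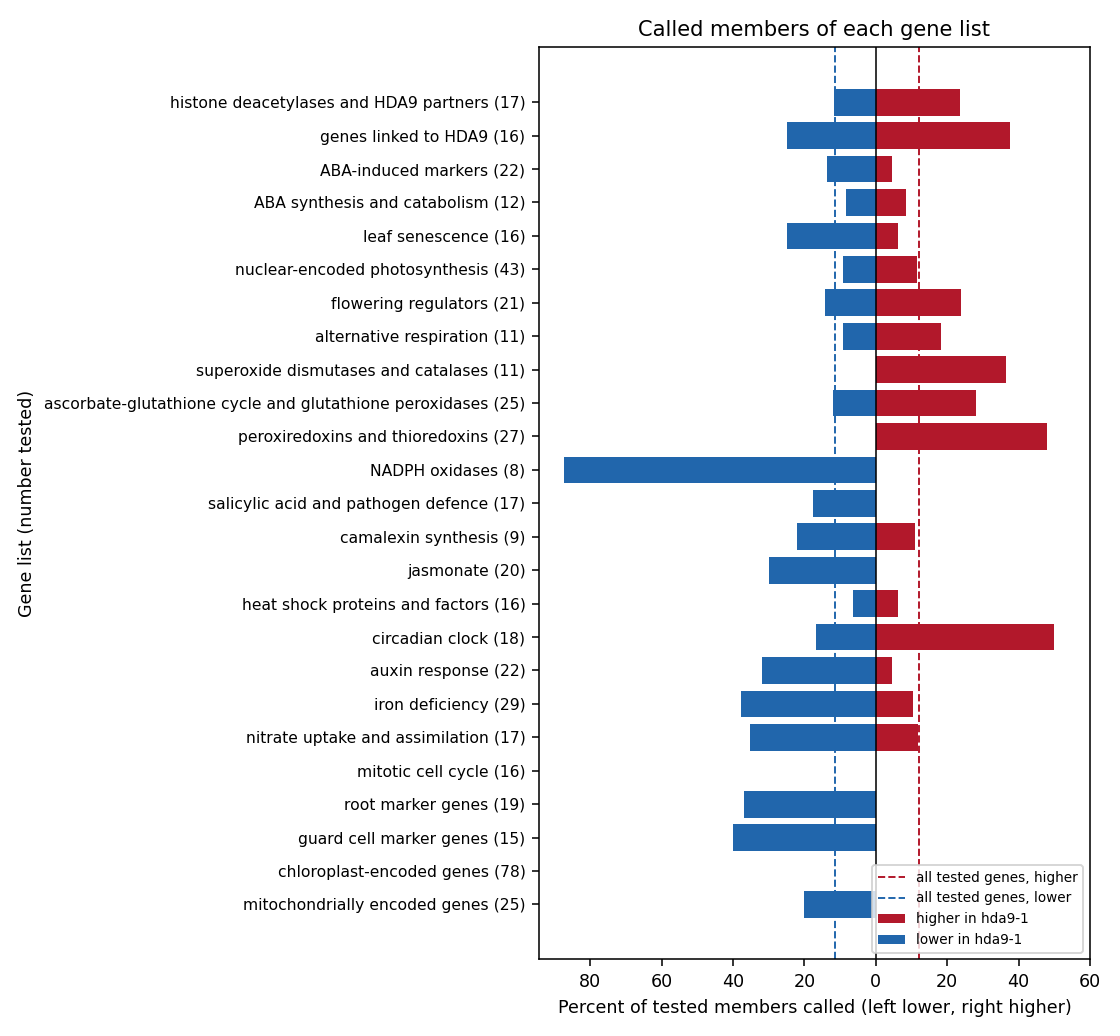
Percent of the tested members of each list that were called higher (right, red) or lower (left, blue) in hda9-1, with dashed lines at the 12.1% and 11.5% of all tested genes, for lists with at least 8 tested members. NADPH oxidases reach furthest left and the clock and the peroxiredoxin and thioredoxin lists furthest right, and the mitotic and chloroplast-encoded lists have no bar.

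The averaged effect was compared with the effect in each treatment, fitted on its own 6 libraries. Without ABA 3544 genes (16.9%) were called, 2065 higher (9.87%) and 1479 lower (7.07%). After ABA 1391 (6.65%) were called, 750 higher (3.58%) and 641 lower (3.06%). These fits share no sample. Of the calls, 412 were higher in both, 303 lower in both and 1 opposite, so the shared calls of equal direction made up 20.2% of the calls without ABA and 51.4% of those after ABA. Across all 20924 genes, 67.0% had the same sign in both fits, and Pearson's r of the log2 fold changes was 0.41 (Spearman's rho 0.46), over genes, which are not independent replicates. Of the 4933 averaged calls, 1742 were called in neither treatment alone.

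The calls after ABA depended on single libraries. They numbered 4462 without hda9-1 after ABA replicate 2, and then 1161 calls were shared, which is 32.8% of those without ABA and 26.0% of those after ABA. They numbered 128, 404 and 226 without Col-0 after ABA replicate 1, 2 or 3, and 482 and 820 without hda9-1 after ABA replicate 1 or 3. The calls without ABA numbered 1747 and 1844 without Col-0 replicate 2 or 3 and 2084 without hda9-1 replicate 2. The averaged calls were less dependent, since 4283 of the 4933 held without hda9-1 after ABA replicate 2.

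**Figure D5:**
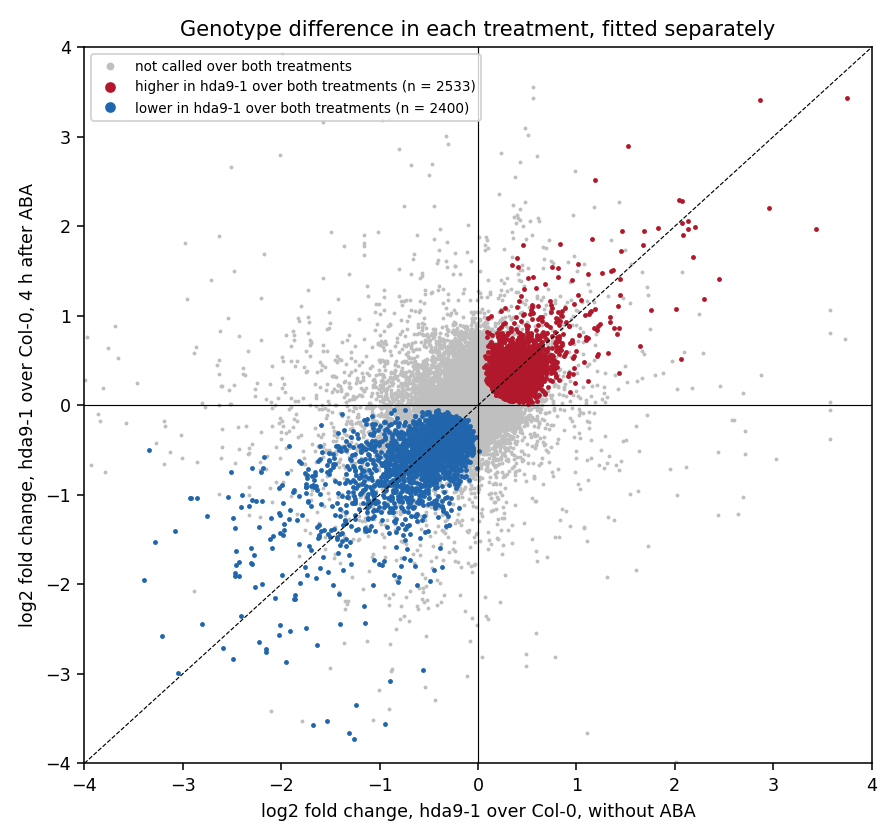
Log2 fold change of hda9-1 over Col-0 without ABA (horizontal) and 4 h after ABA (vertical), each from its own fit, 1 point per tested gene, with genes called over both treatments in red (2533 higher) or blue (2400 lower) and the dashed line marking equal values. Called genes lie in the upper right and lower left, and 73 genes lie outside the plotted range of 4 in either direction.

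No gene passed the test of a difference between the 2 genotype effects. The interaction of genotype and ABA gave 0 calls by edgeR, with a smallest adjusted p of 0.0564 and 2467 genes at an unadjusted p below 0.05. DESeq2 called 129 genes and limma-voom 0, and without hda9-1 after ABA replicate 2 edgeR called 1612. Among genes called over both treatments, the 3 with the smallest interaction p were FAR4, CESA9 and AT4G17280. CESA9, a cellulose synthase, had 0.992, 1.15 and 1.65 CPM in hda9-1 without ABA, against 1.91, 1.91 and 1.86 CPM in Col-0 without ABA, and 0.162, 0.162 and 0.176 CPM in hda9-1 after ABA, against 1.31, 1.25 and 1.36 CPM in Col-0 after ABA. Its averaged log2 fold change of -1.57 stood for -0.56 without ABA and -2.96 after ABA, with an interaction at an adjusted p of 0.158. FAR4, a fatty acid reductase gene near HDA9 on chromosome 3, had -0.74 without ABA and -0.05 after ABA, and its interaction had an adjusted p of 0.137 in edgeR.

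Gene length and base composition moved with the calls. In the lowest quartile of exon GC content 343 genes were higher and 655 lower, and in the highest quartile 871 were higher and 563 lower. The shortest quartile of genes had a median log2 fold change of -0.11 without ABA and 0.19 after ABA, which averaged to 0.03. With each library's trend on length and GC removed, 2862 genes were higher and 2926 lower.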

How the data were processed

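Poly(A) RNA of 12 seedling samples was sequenced. The deposited table gives whole-number counts per gene, without further normalization found in the values. Bowtie2, Salmon, limma 3.56 and the TAIR10 build are named in the submitters' processing notes without their roles, so which tool made the counts, and whether it used strand, is not given in the sources used here. Library totals ran from 42703802 to 52820930 counts.

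Counts were analysed with edgeR 4.0.16 in R 4.3.3. The filterByExpr rule (counts of at least 10, total of at least 15) passed 20924 of 23911 genes. Libraries were scaled by TMM, and a robust quasi-likelihood model with ABA and genotype as additive terms was fitted to all 12 samples. The genotype term was tested two-sided, and the threshold for a call was 0.05 after Benjamini-Hochberg adjustment. Each treatment was also fitted alone, on the genes tested over both treatments, and the interaction was tested in a model with both terms and their product. Levels are TMM-scaled CPM. Medians of lists are medians of log2 fold changes, and lists were described by counts and not tested. In data simulated on these genes, the additive fit recovered 35, 46, 50 and 50 of 50 genes each at 1.5-, 2-, 4- and 8-fold, with 13 false calls. The simulated counts held no ABA effect and no outlying library, so the 13 give no error rate for the real calls.

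Members and lists were chosen with earlier results of these data known. Named genes were HDA9, the 12 largest called increases and decreases without overlap between genotypes and a mean of 5 CPM or more on the higher side, up to 4 members of each list by p, and the 3 called genes with the smallest interaction p. The text gives part of these and further list members. Symbols, positions and sequences are from RefSeq TAIR10.1, which matched 23655 identifiers. Motifs were searched on both strands of the 250 bases before the annotated start. Alternatives were RLE and upper-quartile factors, limma-voom (limma 3.58.1), DESeq2 1.42.0, scaling by library size only, all genes unfiltered, only genes with 1 CPM in 3 samples, removal of length and GC trends, a threshold of 0.01, a model of 4 group means, a block for the replicate number, nuclear genes only and each library left out. Same-numbered samples of the 2 genotypes did not deviate together, so the numbers were not taken as pairs.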

Additional observations from a re-analysis of the deposited data

How the results depend on the processing

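Over both treatments, the counts of higher and lower genes stayed within 1.5 times their values under every alternative except the stricter threshold, an adjusted p below 0.01, which left 1399 higher and 1105 lower. They ran from 1999 to 2591 higher and 1903 to 2416 lower with a library left out, and 3696 of the 4933 calls held under all 12 other settings. HDA9 had a log2 fold change of -1.61 to -1.70 across libraries left out. With the replicate number as a block, 2315 genes were higher and 2241 lower, and with length and GC trends removed as well 2709 and 2795. The correlations of deviations between same-numbered samples were 0.01, 0.15 and -0.02 without ABA and 0.02, -0.09 and -0.20 after ABA. Without ABA alone the calls ran from 1747 to 3629 with a library left out. After ABA alone they numbered 2686 with DESeq2, 2660 as a contrast in the model of 4 group means and 2284 with length and GC trends removed, and 128 to 4462 with a library left out. The interaction gave 1 call with upper-quartile factors, 1 with trends removed, 129 with DESeq2 and 0 to 1612 with a library left out. The causes were not tested. Precision is limited for genes of few counts, such as FT and MRN1, by counting error.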

Other observations

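Genes outside the lists described so far gave a few further values. MRN1, marneral synthase of a triterpene gene cluster, had 0.455, 0.0919 and 0.0803 CPM in hda9-1 without ABA, against 0.0, 0.0 and 0.0433 CPM in Col-0 without ABA. After the spray it had 2.54, 12.1 and 3.73 CPM in hda9-1, against 0.356, 0.389 and 0.939 CPM in Col-0. Its log2 fold change was 3.47 ± 0.61 SE (edgeR, adjusted p = 0.00138), on 906 counts in hda9-1 and 82 in Col-0. The values were high after ABA, and the other tested members of the marneral and thalianol clusters, such as THAS1 (0.22) and CYP708A2 (-0.33), were not called.

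None of the 78 tested chloroplast-encoded genes was called over both treatments by edgeR or limma-voom, while DESeq2 called 1 higher and 4 lower and edgeR called 1 lower with RLE or upper-quartile factors or with the replicate number as a block. Without ABA alone 17 of the 78 were lower, where 7.07% of all genes were lower, and after ABA none was called. The list median of the log2 fold changes was -0.61 without ABA and 0.07 after ABA. Over both treatments it was -0.22, and 16 of the 78 values were positive. The share of chloroplast-encoded genes in all counts was 0.0756% to 0.140% in hda9-1 and 0.102% to 0.199% in Col-0. In a poly(A) library such transcripts are captured poorly. Without Col-0 after ABA replicate 3, 8 of them were lower. Of 25 tested mitochondrially encoded genes, 5 (20.0%) were lower, against 11.5% of all genes, and none higher, which is 20.0% called, against 23.6%. The lower calls were 1 without Col-0 without ABA replicate 1 or 2 or hda9-1 without ABA replicate 2. They were 2 without replicate 3 of either genotype without ABA. They were 3 without hda9-1 without ABA replicate 1, hda9-1 after ABA replicate 2 or Col-0 after ABA replicate 1 or 2. They were 4 without Col-0 after ABA replicate 3 or hda9-1 after ABA replicate 1, and 7 without hda9-1 after ABA replicate 3. Without hda9-1 without ABA replicate 3, 1 gene was called higher.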
